A study of Saccharomyces cerevisiae with 4 samples.

Results

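The genes described here encode the machinery that brings proteins into the mitochondria of budding yeast, Saccharomyces cerevisiae, and folds them there. They were chosen by gene symbol from the deposited table of 7126 features, and 36 of 36 were found, each in 1 row. The study grew strain CRY, of mating type MATa and labelled as lacking ade2, his3, leu2, trp1 and ura3 in every sample, in rich glucose medium (YPD) to the stationary stage. Manganese-adapted cells (2 samples) grew for 120 h at 2.5 mM manganese sulfate, and control cells (2 samples) for 18 h at an estimated 0.0036 mM manganese. Culture time and manganese cannot be told apart in these samples. All samples are of 1 strain, and nothing in the labels says that replicates were separate cultures. The p-values therefore cover the spread of these 4 libraries alone, and that spread may be technical.

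Most mitochondrial proteins are made in the cytosol and imported through the translocase of the outer membrane (TOM). Beta-barrel proteins are then inserted into the outer membrane by the SAM complex. Small cysteine-rich proteins of the space between the membranes are trapped there by oxidation through Mia40 and Erv1, and the small TIM proteins escort hydrophobic carriers to the TIM22 complex. Proteins with a cleavable presequence pass through the TIM23 complex, are pulled into the matrix by a motor built on the Hsp70 protein Ssc1, lose their presequence to a peptidase and are folded by the chaperonin Hsp60 with its partner Hsp10.

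The libraries held 12307870 to 14184276 reads, and the genes described here held 193 to 35593 reads per sample. Levels are in CPM, the reads of a gene relative to the scaled total of its library, and a level per kb is CPM divided by coding length. The 5 genes named in the genotype as lacking had reads in every library, with a summed level of 1194 and 1064 CPM in manganese-adapted and 1031 and 1041 CPM in control samples, so these reads do not show the genes as absent. Of 7 markers of a-cells, 2 rose and 3 fell, with summed levels of 305 to 335 CPM over the 4 samples. Markers of alpha-cells summed to 138 and 149 CPM in manganese-adapted and 69.5 and 66.7 CPM in control samples, with 3 of 5 higher, 1 lower and MATALPHA1 at 0 reads in each. Spore markers summed to 450 and 417 CPM in manganese-adapted and 90.1 and 66.4 CPM in control samples, with 4 of 5 higher and none at 0. Most of the manganese-adapted sum was SPS100, at 352 and 302 CPM, against 31.6 and 21.3 CPM in control samples. Messages of the mitochondrial genome summed to 85.9 and 176 CPM in manganese-adapted and 92.8 and 22.3 CPM in control samples, and these ranges overlap, with 3 of 8 messages called higher and ATP8 at 0 reads in each. Only 4 of the 5 alpha-cell markers and 6 of the 8 mitochondrial messages had enough reads to be tested. These counts stand against 33.6% higher and 34.9% lower among all features tested. The part of these markers in the results was not tested.

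Import and folding genes were mostly lower in manganese-adapted cells. Of 36 genes, all of which passed the filter on low values, 28 fell, 2 rose and 6 did not pass (limma, adjusted p under 0.05 over 6296 features). With manganese-adapted replicate 1 left out 23 fell and 0 rose, and 1 rose with manganese-adapted replicate 2 or control replicate 2 left out. Over all features tested, 34.9% fell and 33.6% rose, 68.5% in all. The median log2 fold change of the 36 genes was -0.53, against -0.01 over all features tested, and it was negative for 31 genes, against 50.6% of all features. At most 50% of the control level was left in 7 of the 36 genes, against 8.39% of all features. The 2 groups did not overlap in 34 of 36 genes, but this was also so for 85.7% of all features. CPM are shares of a library, so a shift in the total messenger RNA of a cell would not be seen, and fewer cells of a kind cannot be told apart from less RNA per cell. In the authors' deposited table, 26 of the 36 genes were lower and 1 was higher at a false discovery rate under 0.05, against 30% lower and 29.1% higher among all features.

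**Figure D1:**
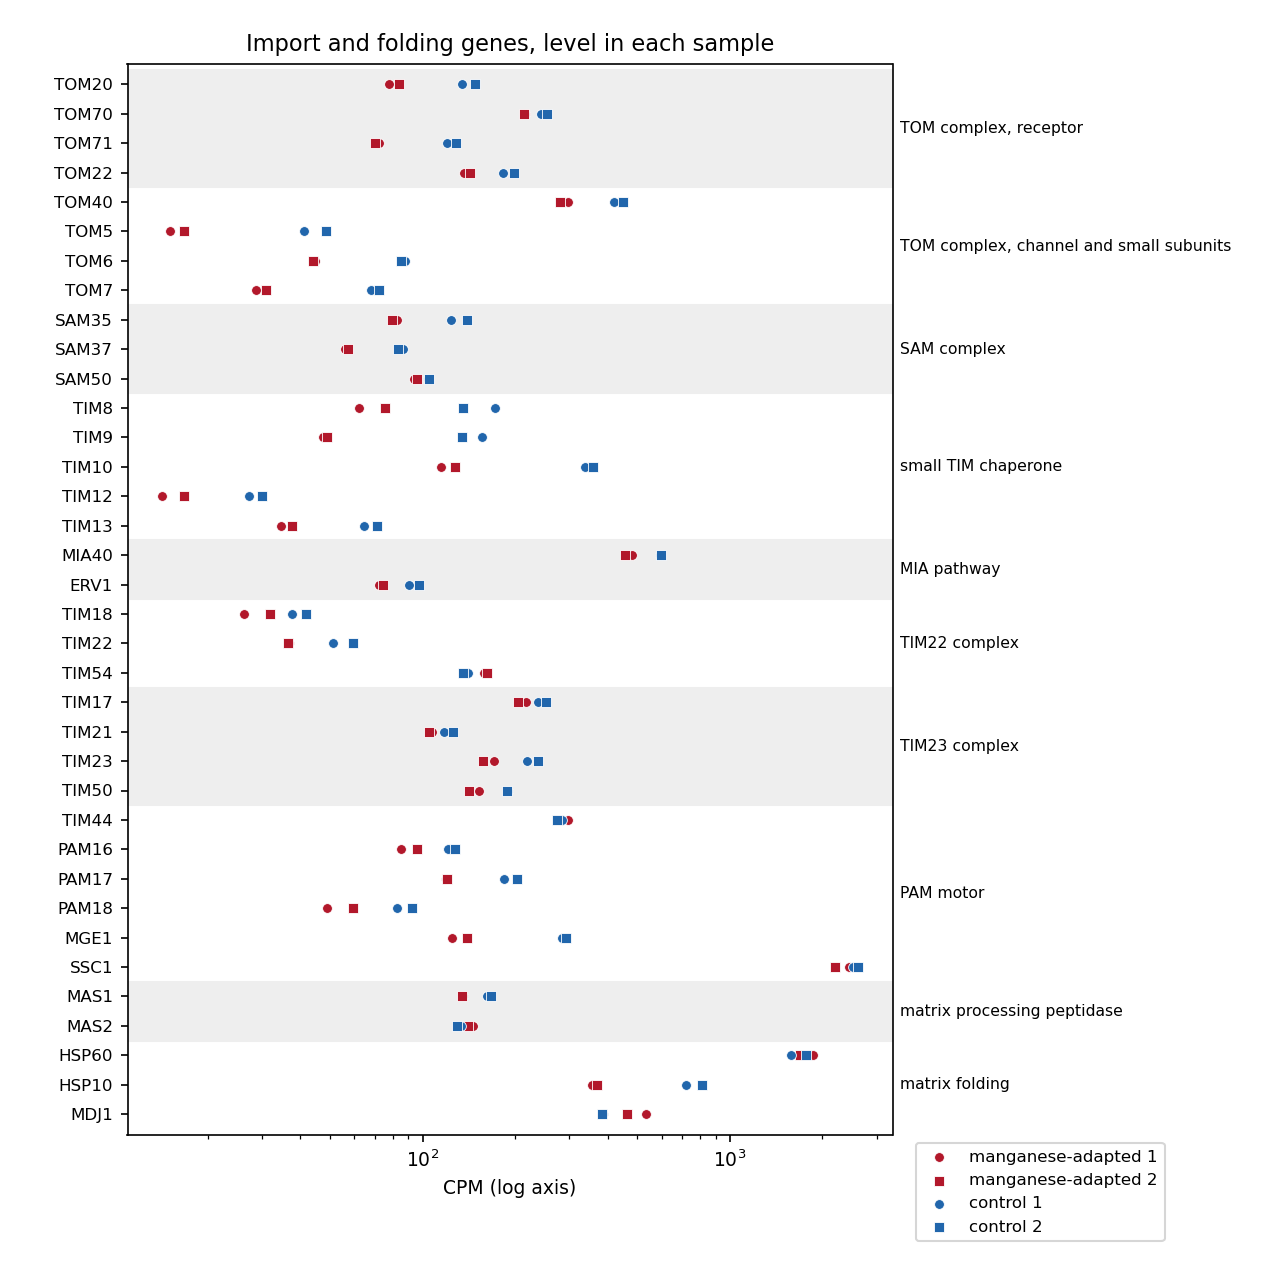
Level of each of the 36 genes in each sample, in CPM on a log axis, grouped by role. Red symbols are the 2 manganese-adapted samples and blue symbols the 2 control samples. Red lies left of blue for most genes, by most for TIM9, TIM10 and TOM5, and lies right of blue for TIM54, MAS2 and MDJ1.

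All 8 genes of the TOM complex fell. Their median log2 fold change was -0.80. TOM40 (chrXIII:668492-669655, plus strand), which encodes the channel, had 297 and 281 CPM in manganese-adapted samples, against 419.9 and 450.1 CPM in control samples, a log2 fold change of -0.59 ± 0.09 (SE; limma adjusted p 0.000185). The groups were clearly separate, and 66.4% of the control level was left. The short genes of the small subunits that surround the channel also fell. TOM5 (chrXVI:797557-797709, plus strand) had 15.0 and 16.7 CPM in manganese-adapted samples, against 41.1 and 48.6 CPM in control samples. TOM7, which acts on the assembly and stability of the complex, had 28.7 and 31.0 CPM in manganese-adapted samples, against 67.9 and 72.3 CPM in control samples. TOM6, a stabiliser of the assembled complex, had 44.7 and 44.1 CPM in manganese-adapted samples, against 87.6 and 85.2 CPM in control samples. The remaining share of the control level was thus 35.4% for TOM5, 42.6% for TOM7 and 51.4% for TOM6, and both manganese-adapted samples lay below both controls for each of them. With the trend on coding length removed, the log2 fold change was -0.93 for TOM5, -0.64 for TOM7 and -0.38 for TOM6, against -0.59 for TOM40, so the order depends on that trend.

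Among the receptors, which bind precursors at the surface, TOM20 had 77.7 and 83.6 CPM in manganese-adapted samples, against 135 and 148 CPM in control samples (log2 fold change -0.80 ± 0.09 SE, limma adjusted p 1.86e-05). TOM70, the receptor for carrier proteins, had 216 and 214 CPM in manganese-adapted samples, against 243 and 254 CPM in control samples, and its log2 fold change of -0.21 was near the threshold (limma adjusted p 0.0412). TOM71, its paralog, had 72.0 and 69.9 CPM in manganese-adapted samples, against 120.3 and 129 CPM in control samples. So 57.0% of the control level was left for TOM71 and 86.4% for TOM70. The coding sequences of the paralogs are 57.6% identical in an alignment and share no identical run longer than 12 bases, so a longer read would differ between them. TOM22, the central receptor, had 136 and 142 CPM in manganese-adapted samples, against 183 and 199 CPM in control samples. TOM70 did not pass when manganese-adapted replicate 1 (adjusted p 0.135), manganese-adapted replicate 2 (0.15) or control replicate 2 (0.12) was left out, and the TOM22 fall was no longer seen with the trend on coding length removed (log2 fold change 0.04).

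In the SAM complex, SAM35 had 82.8 and 79.8 CPM in manganese-adapted samples, against 124 and 139 CPM in control samples. SAM37 had 55.8 and 57.1 CPM in manganese-adapted samples, against 86.6 and 83.4 CPM in control samples. These subunits, which face the cytosol, fell with log2 fold changes of -0.69 and -0.58. SAM50, the barrel itself, had 93.5 and 95.9 CPM in manganese-adapted samples, against 104 and 105 CPM in control samples, and did not pass (log2 fold change -0.14 ± 0.08 SE, limma adjusted p 0.152). With the trend on coding length removed it passed as lower (-0.24, adjusted p 0.0204).

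All 5 small TIM genes fell, and their median log2 fold change of -1.14 was the lowest of any role. They are genes of up to 400 bases, and 59.5% of all features of that length fell. With the trend on coding length removed their median was -0.53, and that of the TOM channel and small subunits was lowest, at -0.615. The small TIM proteins are defined by cysteine pairs with 3 residues between them, which Mia40 and Erv1 oxidise. The coding stretches that hold these pairs are printed here from the R64 genome because the pairs define this group. A link between the pairs and the fall of the 5 genes was not tested. The cysteine codons of the pairs are in capitals, and each stretch is given 5′ to 3′ on the coding strand.
TIM8 (chrX:677100-677174, plus strand): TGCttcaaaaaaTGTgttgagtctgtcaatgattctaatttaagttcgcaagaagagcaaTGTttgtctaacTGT
TIM9 (chrV:117313-117387, plus strand): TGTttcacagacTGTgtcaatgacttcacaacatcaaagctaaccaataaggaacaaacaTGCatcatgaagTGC
TIM10 (chrVIII:115707-115784, minus strand): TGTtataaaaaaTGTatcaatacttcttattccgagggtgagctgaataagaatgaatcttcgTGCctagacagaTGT
TIM12 (chrII:427287-427367, minus strand): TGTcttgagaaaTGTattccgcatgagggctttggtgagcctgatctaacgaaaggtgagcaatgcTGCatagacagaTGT
TIM13 (chrVII:858455-858517, plus strand): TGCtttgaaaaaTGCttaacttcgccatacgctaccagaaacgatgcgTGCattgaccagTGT
Between the pairs lie 15 codons in TIM8 and TIM9, 16 in TIM10, 17 in TIM12 and 11 in TIM13.

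TIM10, the partner of Tim9 in the main soluble chaperone complex, had 114 and 127 CPM in manganese-adapted samples, against 337 and 359.5 CPM in control samples (log2 fold change -1.52 ± 0.09 SE, limma adjusted p 2.79e-07). TIM9 had 47.4 and 49.0 CPM in manganese-adapted samples, against 156 and 135 CPM in control samples (-1.57 ± 0.10 SE, limma adjusted p 3.43e-07). These were the largest falls among the 36 genes, with 34.7% and 33.2% of the control level left. TIM8 and TIM13 encode a second chaperone pair, known in yeast to escort Tim23. TIM8 had 62.2 and 75.5 CPM in manganese-adapted samples, against 172 and 136 CPM in control samples. TIM13 had 34.5 and 37.6 CPM in manganese-adapted samples, against 64.6 and 71.3 CPM in control samples. Both genes fell, and the control samples of TIM8 were the more spread. TIM12, whose product is bound to the TIM22 complex, had 14.2 and 16.7 CPM in manganese-adapted samples, against 27.3 and 30.0 CPM in control samples. It was the least abundant of the small TIM genes per kb, at 46.9 CPM per kb in manganese-adapted and 86.9 CPM per kb in control samples. Its call was lost with the trend on coding length removed (log2 fold change -0.26, limma adjusted p 0.0631), and the other 4 were still called lower there, at -0.30 to -0.96.

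Both genes of the oxidation pathway that acts on these proteins fell, with smaller log2 fold changes. MIA40, the disulfide carrier, had 480.4 and 455 CPM in manganese-adapted samples, against 591 and 598 CPM in control samples. ERV1, the sulfhydryl oxidase that recharges Mia40, had 72.1 and 74.4 CPM in manganese-adapted samples, against 90.6 and 97.1 CPM in control samples. Each fell by 0.35 on the log2 scale, with 78.7% and 78.0% of the control level left (limma adjusted p 0.00748 and 0.00396). ERV1 is the single spliced gene of the 36. MIA40 did not pass when manganese-adapted replicate 2 was left out (adjusted p 0.0659). ERV1 did not pass when manganese-adapted replicate 1 was left out (0.0522) or with the trend on coding length removed (log2 fold change 0.03, adjusted p 0.733).

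In the TIM22 complex, which inserts carriers into the inner membrane, the subunits did not move together. TIM22, the channel, had 36.7 and 36.6 CPM in manganese-adapted samples, against 51.0 and 59.4 CPM in control samples, and fell (log2 fold change -0.58 ± 0.10 SE, limma adjusted p 0.000585). TIM18 had 26.3 and 31.8 CPM in manganese-adapted samples, against 37.7 and 41.8 CPM in control samples, and fell (-0.44, adjusted p 0.00652). TIM54, which holds the small TIM proteins at the complex, had 158 and 162 CPM in manganese-adapted samples, against 141 and 136 CPM in control samples. It was 1 of the 2 genes that rose (0.21 ± 0.08 SE, limma adjusted p 0.0384). None of these 3 calls held with the trend on coding length removed, where the log2 fold changes were -0.24, -0.06 and 0.11. TIM54 also did not pass when manganese-adapted replicate 1 (adjusted p 0.114), manganese-adapted replicate 2 (0.163) or control replicate 2 (0.102) was left out, nor did TIM18 when manganese-adapted replicate 1 was left out (0.0931).

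The TIM23 complex, the presequence translocase, showed small falls. TIM23, the channel, had 170.4 and 157 CPM in manganese-adapted samples, against 218 and 238 CPM in control samples (log2 fold change -0.48 ± 0.09 SE, limma adjusted p 0.000692), and it did not pass with the trend on coding length removed (-0.18, adjusted p 0.0808). TIM50, the receptor that hands precursors to the channel, had 152 and 142 CPM in manganese-adapted samples, against 189.4 and 188.9 CPM in control samples (-0.36, adjusted p 0.00264). TIM17, the partner of Tim23, had 218 and 205 CPM in manganese-adapted samples, against 238 and 253 CPM in control samples (-0.21, adjusted p 0.0444). TIM17 stood near the threshold. It did not pass when manganese-adapted replicate 1 (adjusted p 0.0949), manganese-adapted replicate 2 (0.222) or control replicate 2 (0.141) was left out, and it passed as higher with the trend on coding length removed (0.26, adjusted p 0.02). TIM21, which links the complex to TOM, had 108 and 105 CPM in manganese-adapted samples, against 117 and 126 CPM in control samples, and did not pass (-0.19, adjusted p 0.0622), though it did without control replicate 1 (-0.24, adjusted p 0.03).

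The import motor was uneven. MGE1 (chrXV:774573-775259, plus strand), the nucleotide exchange factor of Ssc1, had 125 and 139.5 CPM in manganese-adapted samples, against 284 and 293 CPM in control samples (log2 fold change -1.12 ± 0.09 SE, limma adjusted p 1.87e-06). SSC1 (chrX:519638-521602, minus strand), the Hsp70 itself, had 2438 and 2195 CPM in manganese-adapted samples, against 2519 and 2604 CPM in control samples, and did not pass (-0.15 ± 0.16 SE, adjusted p 0.427). MGE1 was at 45.7% and SSC1 at 90.4% of the control level. TIM44, which tethers Ssc1 to the channel, had 298 and 275 CPM in manganese-adapted samples, against 284 and 274 CPM in control samples, and these ranges overlap (0.04 ± 0.09 SE, limma adjusted p 0.691). PAM18, the J protein of the motor, had 49.0 and 59.2 CPM in manganese-adapted samples, against 82.3 and 92.3 CPM in control samples. PAM16, its J-like partner, had 85.0 and 95.7 CPM in manganese-adapted samples, against 121 and 128 CPM in control samples. PAM17, which helps to organise the motor, had 119 and 119.7 CPM in manganese-adapted samples, against 185 and 203 CPM in control samples. PAM16, PAM17 and PAM18 fell with log2 fold changes of -0.46, -0.69 and -0.68 and kept 61.6% to 72.7% of the control level. With the trend on coding length removed, PAM16 was at 0.04 and PAM18 at -0.24 (adjusted p 0.0585), and SSC1 passed as lower (-0.41, adjusted p 0.0238). SSC1 has a relative, ECM10, with a coding sequence 74.8% identical in an alignment and a longest identical run of 26 bases, so a longer read would differ between them.

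In the matrix, MAS1 and MAS2 encode the subunits of the peptidase that removes presequences. MAS1 had 135.0 and 134.8 CPM in manganese-adapted samples, against 162 and 167 CPM in control samples, and fell by 0.28 on the log2 scale (limma adjusted p 0.0093). MAS2 had 145 and 140.2 CPM in manganese-adapted samples, against 134 and 129.9 CPM in control samples, and did not pass (0.12 ± 0.08 SE, adjusted p 0.225). The CPM of the subunits thus lay on opposite sides of their controls. With the trend on coding length removed MAS1 was at -0.36 (limma adjusted p 0.00193) and MAS2 at 0.01 (adjusted p 0.894). MAS1 did not pass when manganese-adapted replicate 1 or manganese-adapted replicate 2 was left out. Its log2 fold change ran from -0.30 to -0.26 with 1 sample left out.

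The folding genes showed the widest spread of log2 fold changes, from -1.07 to 0.37. With the trend on coding length removed they ran from -0.48 to 0.23. The TOM receptors, from -1.06 to 0.04, were then more spread. HSP60 (chrXII:663284-665002, minus strand), the chaperonin, had 1863 and 1689 CPM in manganese-adapted samples, against 1575 and 1767 CPM in control samples, and these ranges overlap (log2 fold change 0.09 ± 0.14 SE, limma adjusted p 0.598). HSP10 (chrXV:370524-370844, minus strand), the lid of the same chaperonin, had 355 and 371 CPM in manganese-adapted samples, against 717 and 812 CPM in control samples (-1.07 ± 0.10 SE, adjusted p 6.47e-06). HSP10 was at 47.5% of its control level and HSP60 at 106%. With the trend on coding length removed the gap was smaller, with HSP10 at -0.48 (limma adjusted p 0.00132) and HSP60 at -0.12 (adjusted p 0.442). MDJ1 (chrVI:104701-106236, minus strand), the J protein that delivers unfolded proteins to Ssc1, had 533 and 463 CPM in manganese-adapted samples, against 386 and 384 CPM in control samples. MDJ1 rose (0.37 ± 0.10 SE, limma adjusted p 0.00717), the largest rise among the 36 genes, and did not pass when manganese-adapted replicate 1 was left out (0.27, adjusted p 0.0879). Per kb, HSP10 averaged 1131 CPM in manganese-adapted samples, rank 2 of 36, against 2382 CPM in control samples, rank 1. SSC1 ranked 1 in manganese-adapted and 2 in control samples. MDJ1 ranked 7 of 36 in manganese-adapted and 19 in control samples, and TIM9 ranked 17 in manganese-adapted and 6 in control samples.

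**Figure D2:**
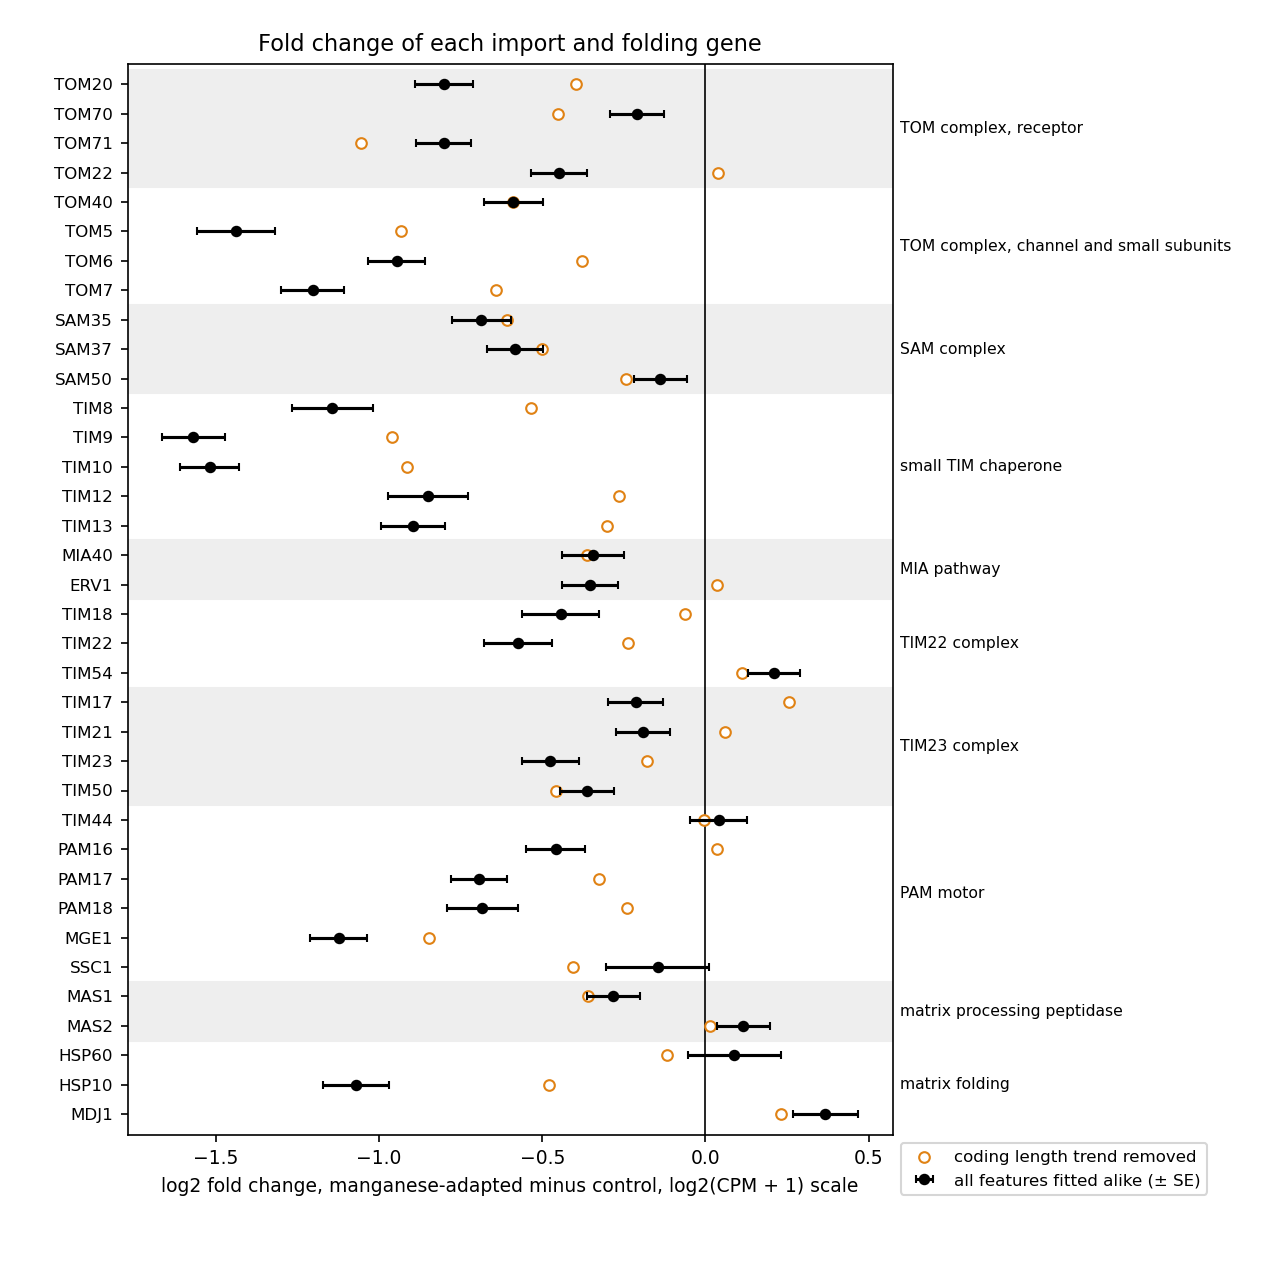
Log2 fold change of each gene, in manganese-adapted against control samples, as log2(CPM + 1). Black points with bars are limma estimates with their standard errors, and open circles are estimates with the trend on coding length removed. Black points run from -1.57 (TIM9) to 0.37 (MDJ1), and the open circles of TOM22, ERV1, TIM17, TIM21, TIM44, PAM16 and HSP60 lie on the other side of 0 from their black points.

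The promoters of HSP10 and HSP60 are shown because the proteins act as 1 machine while their messages differed in fold change. Each window holds the 250 bases before the start codon and 50 bases that begin with its first base. Windows are given 5′ to 3′ on the coding strand, from the R64 genome. Capitals mark matches to the core of a heat shock element, GAANNTTC or TTCNNGAA, where adjacent matches overlap.
HSP10 (chrXV:370795-371094, minus strand): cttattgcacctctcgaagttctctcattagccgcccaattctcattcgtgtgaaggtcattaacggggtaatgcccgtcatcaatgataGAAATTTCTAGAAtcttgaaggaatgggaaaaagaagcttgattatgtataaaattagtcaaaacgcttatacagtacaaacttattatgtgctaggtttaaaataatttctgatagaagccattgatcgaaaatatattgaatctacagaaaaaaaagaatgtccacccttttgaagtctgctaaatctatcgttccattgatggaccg
HSP60 (chrXII:664953-665252, minus strand): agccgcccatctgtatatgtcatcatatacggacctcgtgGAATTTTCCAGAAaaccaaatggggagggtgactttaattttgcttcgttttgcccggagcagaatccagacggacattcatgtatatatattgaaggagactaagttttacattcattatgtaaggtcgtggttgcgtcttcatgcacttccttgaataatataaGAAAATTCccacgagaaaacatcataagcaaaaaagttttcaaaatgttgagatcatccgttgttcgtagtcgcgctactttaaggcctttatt
HSP10 held 2 matches and HSP60 held 3, and the windows of SSC1, MGE1 and MDJ1 held none. Over the 36 genes 9 windows held a match (25%), against 22.6% of 5986 nuclear protein-coding genes. Of the 9 genes with a match 5 fell, and of the 27 without it 23 fell. Their median log2 fold changes were -0.21 and -0.68, and -0.005 and -0.40 with the trend on coding length removed. Over all genes of the table the medians were -0.02 with a match and 0.02 without it. This difference was not tested. The stress element AGGGG, on either strand, was in 11.1% of the 36 windows and in 21.7% of all windows. CCAAT, on either strand, was in 41.7% of the 36 windows and in 43.3% of all windows.

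A motif after the stop codon was more frequent. Puf3 is an RNA-binding protein known in yeast to bind messages of nuclear genes for mitochondrial proteins, at sites of the form TGTANATA. Within 250 bases after the stop codon, on the coding strand, 26 of the 36 genes held this motif (72.2%), against 15.2% of the 5986 genes, and 6 of the 26 held it more than once. Sites are shown for 5 genes that fell to under 50% of control and for 5 that did not fall. All 10 were picked among genes with the motif, which is in capitals, so they do not show how frequent it is in either kind. Each is the coding-strand sequence, 5′ to 3′, from the R64 genome.
TIM8 (chrX:677276-677305, plus strand): cttaatatatcTGTAAATAagcaaatgaat
TIM9 (chrV:117521-117550, plus strand): catttttagcaTGTAAATAtaaagagaaac
TIM10 (chrVIII:115498-115527, minus strand): gattcatatccTGTATATAcaagtaacatt
MGE1 (chrXV:775340-775369, plus strand): ctacgtttactTGTATATAtttgtaaacta
HSP10 (chrXV:370451-370480, minus strand): atgtatgtaccTGTAAATAggccattatgt
HSP60 (chrXII:663207-663236, minus strand): ttttattatctTGTAAATAcaatgtgaaaa
MDJ1 (chrVI:104666-104695, minus strand): atgcaatttctTGTAGATAaggaaaaatag
TIM44 (chrIX:312502-312531, plus strand): cctattccgctTGTAAATAactccgttatg
TIM54 (chrX:335827-335856, plus strand): tatataaaatcTGTAAATAtaataaaatgt
MAS2 (chrVIII:157511-157540, minus strand): tattctcattcTGTATATAcaaaacatctc
Of the 26 genes with the motif, 21 fell, and of the 10 without it, 7 fell. The 7 genes with at most 50% of the control level all held the motif, TOM5 and TOM7 among them. Among the genes that did not pass, SSC1, SAM50 and TIM21 lacked the motif, while TIM44, MAS2 and HSP60 held it. The median log2 fold change was -0.64 with the motif and -0.41 without it. The genes with the motif were shorter, with a median coding length of 574.5 bases against 1190.0 bases without it, and with the trend on coding length removed the medians were -0.31 and -0.38. Over all genes of the table the medians were -0.12 with the motif and 0.03 without it, and -0.13 and 0.01 with that trend removed. PUF3 itself, at 54.0 and 56.4 CPM in manganese-adapted and 61.3 and 63.3 CPM in control samples, did not pass. A match of letters is a description and not a binding site.

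**Figure D3:**
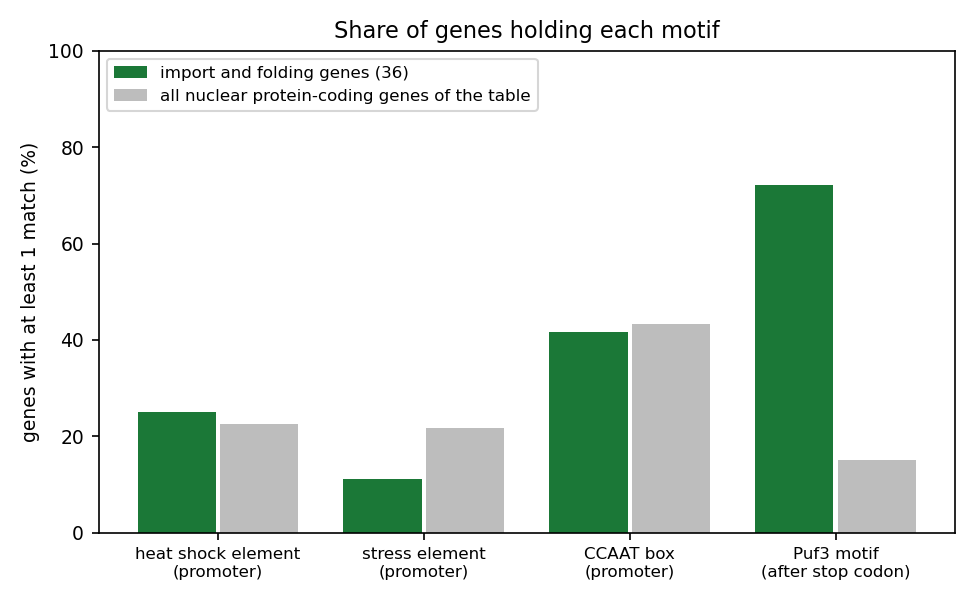
Share of genes with at least 1 match to each motif, in percent, for the 36 import and folding genes (green) and for all nuclear protein-coding genes of the table (grey). The bars differ most for the Puf3 motif, at 72.2% and 15.2%.

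Fold changes followed coding length. The median log2 fold change of all tested features was -0.58 for genes of up to 400 bases, -0.37 above 400 and up to 800 bases, -0.03 above 800 and up to 1400 bases, and 0.23 above 1400 bases. The import and folding genes in the same classes had medians of -1.14 (9 genes), -0.47 (12 genes), -0.46 (6 genes) and -0.14 (9 genes), each below that of its class. All 9 genes of up to 400 bases fell, against 59.5% of all features of that length. These 9 were the small TIM genes, TOM5, TOM6, TOM7 and HSP10. Above 1400 bases, 3 of 9 fell and 2 rose, against 17.5% and 49.9% of all features of that length. Across the 36 genes Spearman's rho between coding length and log2 fold change was 0.76, and across 5779 features with a coding length it was 0.39. For the control level per kb, rho with log2 fold change was -0.30 across the 36 genes and -0.48 across those 5779 features. The control level is itself part of the fold change, and no trend on level was removed. Genes share these libraries and are not independent, so these are descriptions. With the trend on coding length removed, 21 of the 36 genes were called lower and 2 higher, against 33.9% and 32.9% of all features, with a median of -0.34. Among the 9 genes above 1400 bases TOM71 fell most, at -0.80, and it was at -1.06 with the trend removed.

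**Figure D4:**
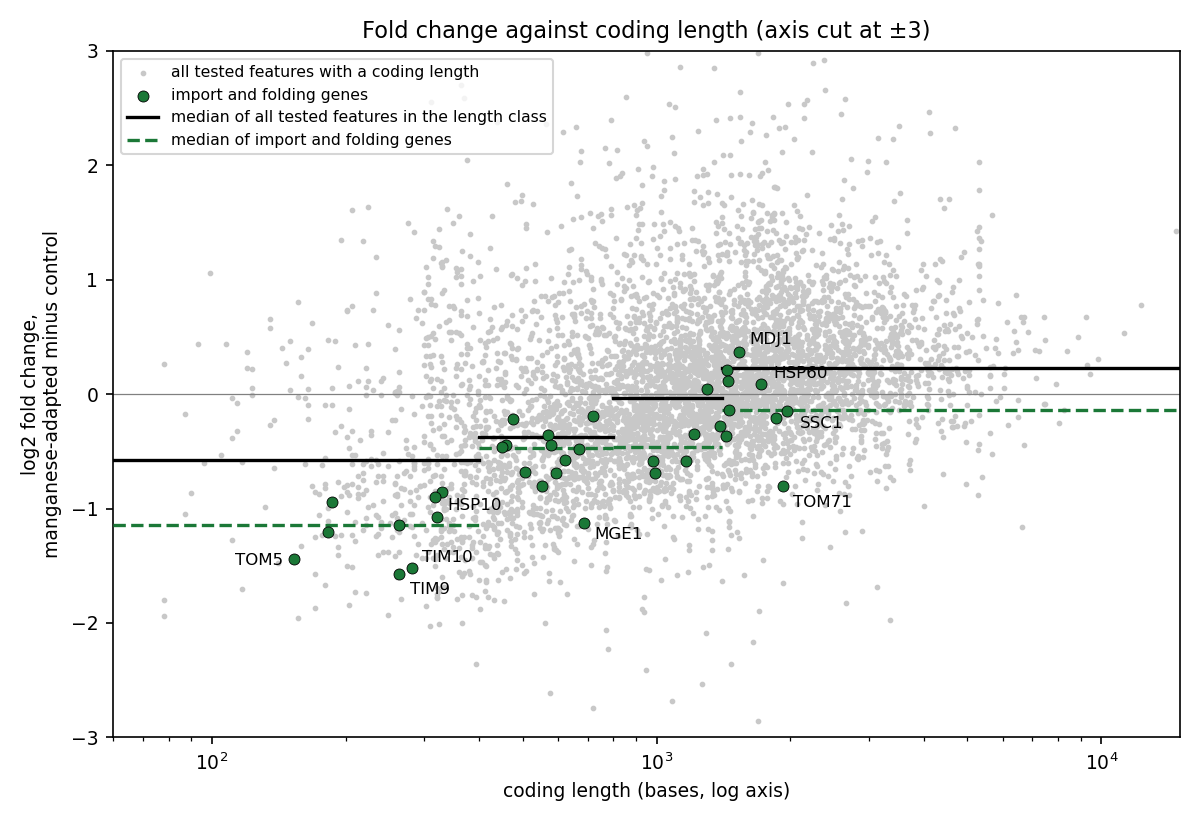
Log2 fold change against coding length in bases on a log axis, with the most extreme features beyond the vertical axis. Grey points are the tested features with a coding length and green points the 36 genes. Solid lines are medians of all features in each length class and dashed lines those of the 36 genes, which lie lower in every class, from -1.14 in the shortest to -0.14 in the longest.

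Ratios between partner messages within a sample do not depend on the scaling of that sample. The HSP10 to HSP60 ratio was 0.191 and 0.220 in manganese-adapted samples, against 0.455 and 0.460 in control samples. The MGE1 to SSC1 ratio was 0.0511 and 0.0635 in manganese-adapted samples, against 0.113 and 0.113 in control samples. The MDJ1 to MGE1 ratio was 4.28 and 3.32 in manganese-adapted samples, against 1.36 and 1.31 in control samples. In each case the groups did not overlap, but this was also so for the levels of 85.7% of all single features. Such a share was not computed for ratios of other pairs. These ratios set a shorter gene's message against a longer one's, or the reverse, and are not corrected for the trend on coding length. With that trend removed the log2 fold changes were -0.48 for HSP10 and -0.12 for HSP60, -0.85 for MGE1 and -0.41 for SSC1, and 0.23 for MDJ1. The TIM22 to TIM54 ratio was 0.232 and 0.225 in manganese-adapted samples, against 0.362 and 0.437 in control samples. The TOM5 to TOM40 ratio was 0.0507 and 0.0597 in manganese-adapted samples, against 0.0979 and 0.108 in control samples. Other partners kept their ratio within the spread of the samples. The TIM9 to TIM10 ratio was 0.414 and 0.385 in manganese-adapted samples, against 0.463 and 0.375 in control samples. The TIM8 to TIM13 ratio was 1.801 and 2.01 in manganese-adapted samples, against 2.66 and 1.90 in control samples. The ERV1 to MIA40 ratio was 0.150 and 0.163 in manganese-adapted samples, against 0.153 and 0.162 in control samples. Of 21 pairs compared, these 3 were the ones whose groups overlapped, and an exact permutation test of 2 samples against 2 cannot give a two-sided p below 0.333.

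**Figure D5:**
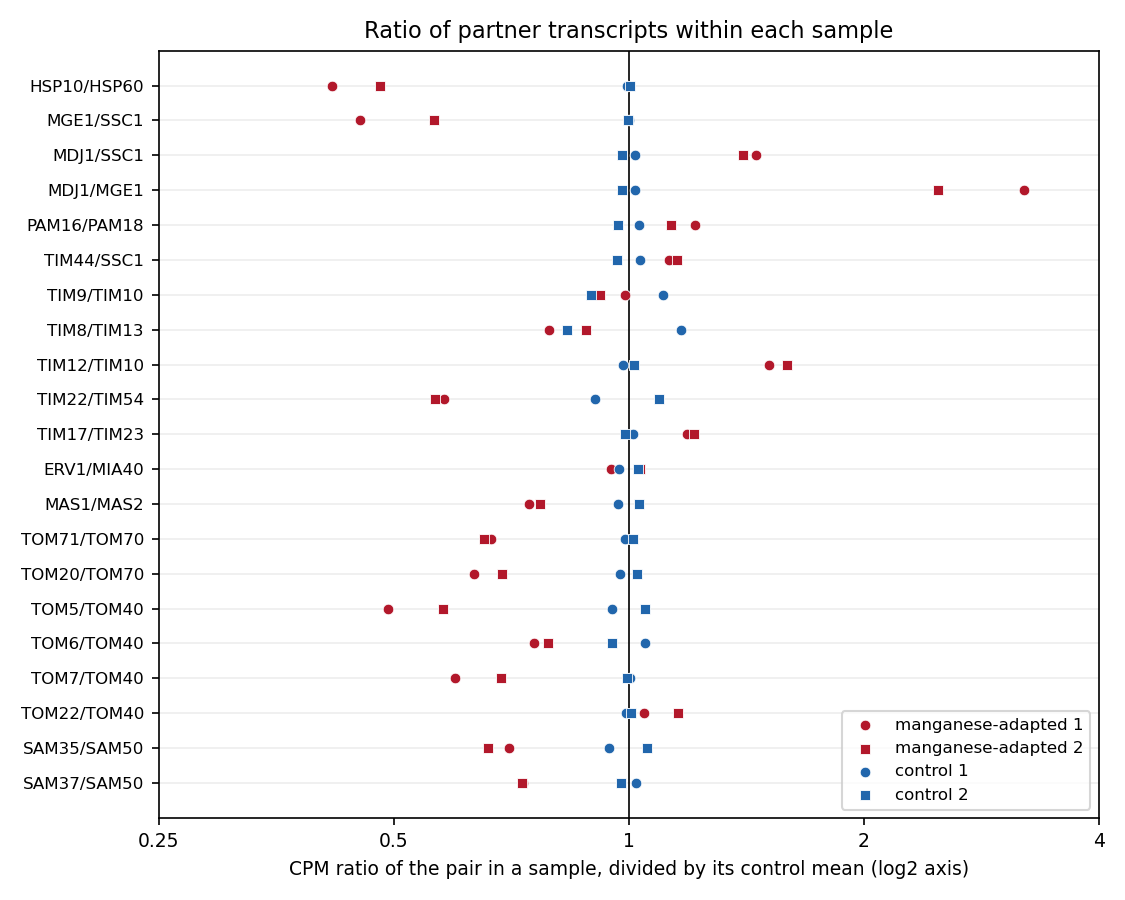
CPM ratio of partner messages in each sample, divided by the mean ratio of the control samples, on a log2 axis. Red symbols are manganese-adapted and blue symbols control samples. MDJ1/MGE1 lies farthest right and HSP10/HSP60 farthest left, and the groups overlap for TIM9/TIM10, TIM8/TIM13 and ERV1/MIA40.

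Other genes of the pathway were mixed, and their counts are read against the 34.9% of all features that fell and the 33.6% that rose. Of 19 accessory import factors, 9 fell and 3 rose, with a median log2 fold change of -0.22. OXA1, the inner membrane insertase, had 137 and 116 CPM in manganese-adapted samples, against 249 and 269.8 CPM in control samples (log2 fold change -1.04). SOM1, a subunit of the inner membrane peptidase (-0.99), MGR2, a small subunit of TIM23 (-0.95), and MIM1, an outer membrane insertase (-0.90), also fell. OXA1, with 1209 coding bases, was still at -1.05 with the trend on coding length removed, while the others, all short, were at -0.32 to -0.39. Of 17 other matrix chaperones and inner membrane proteases and their partners, 5 fell and 2 rose, neither share above that of all features. With the trend on coding length removed 8 fell, and with the GC trend removed 4 rose. The proteases YME1 (0.74) and AFG3 (0.51) rose, and the cyclophilin CPR3 (-0.84) and the iron-sulfur J protein JAC1 (-0.83) fell.

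The groups of proteins that use these routes were counted in the same way, against the same 34.9% lower and 33.6% higher of all features. Of 17 genes for Mia40 route substrates and related proteins, 11 fell and 5 rose, with a median of -0.76, and -0.28 with the trend on coding length removed. The number that rose was 3 with the GC trend removed or manganese-adapted replicate 1 left out and 2 with manganese-adapted replicate 2 left out. COX17, the copper chaperone of cytochrome oxidase, had 51.9 and 60.001 CPM in manganese-adapted samples, against 203 and 173 CPM in control samples. CMC2 (-1.60), CMC1 (-1.43) and MIX14 (-1.29) also fell. The 5 genes of this list that rose were COX19 (log2 fold change 0.62), COX23 (0.36), MIX17 (0.33), MIX23 (0.25) and CMC4 (0.23). With the trend on coding length removed those 5 ran from 0.62 to 1.23, against -1.14 to -0.73 for the 4 named genes that fell. Of 30 carriers of the TIM22 route, 9 fell and 6 rose, with a median of -0.18, and neither share was above that of all features. The carnitine carrier CRC1 rose (1.36), and the copper and phosphate carrier PIC2 (-1.19), the succinate-fumarate carrier SFC1 (-0.84) and YMC2 (-0.84) fell. The number of falls was 4 when manganese-adapted replicate 2 was left out. Of 14 cytosolic targeting factors 8 fell and 3 rose. The Hsp70 genes went apart, SSA3 rising (1.39) and SSA2 falling (-1.65). Genes of this Hsp70 family may share reads, which was not tested. The nascent chain factors EGD1 (-1.13) and EGD2 (-0.80) fell. Of 10 further outer membrane genes 5 fell and 3 rose. The porin genes POR1 (-0.89) and POR2 (-0.84) fell, and FZO1 (0.59) and GEM1 (0.58), of fusion and mitochondrial inheritance, rose.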

How the data were processed

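RNA was measured in 2 manganese-adapted and 2 control samples of 1 yeast strain. The deposited per-sample values are headed as counts but are CPM, reads of a gene relative to the scaled total of its library, as scaled by the authors, and a log2 fold change and p-value of the authors stand beside them. Build sacCer3 and, with no roles given, edgeR, HTSeq, Bowtie, TopHat2 2.0.13 and cutadapt 1.8.1 are listed, per the submitters' processing notes. Not given in the sources used here are annotation, counting mode and strand. Every CPM value lay within 0.001 reads of a whole number of reads, 100% of values, so reads were recovered (12307870 to 14184276 per library). A floor of 3 reads is 0.212 to 0.237 CPM, for counting error alone. No row was left out for naming no gene.

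Features with at least 1 CPM in 2 samples (6296) were tested with limma-trend 3.58.1 in R 4.3.3 on log2(CPM + 1). Benjamini-Hochberg adjustment at 0.05 was over all of them. The fit was also run on simulated data in which far fewer features changed than were called here. That run does not show how the fit behaves at the share of changes seen here. Fold changes on the log2(CPM + 1) scale understate those of low genes. Alternatives were pseudocounts of 0.5 and 10, other filters and scalings, edgeR 4.0.16 and DESeq2 1.42.0 on recovered reads, samples left out, a replicate block, and loess trends (span 0.5) on coding length or GC removed, which keeps the 5779 features (91.8%) with a coding length.

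Coordinates and sequences are from the R64 genome and annotation (RefSeq), matched by locus tag for 84.9% of features. No member overlapped another annotated gene. All members are named in the text, and of each other list up to 4 genes with the largest change. Beyond that rule PUF3, and the motif of its protein, were chosen after their values were seen. The 5 Mia40 route genes that rose are also named beyond that rule. The members and lists were chosen with earlier results of these data known.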

Additional observations from a re-analysis of the deposited data

How the results depend on the processing

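Of the 28 genes called lower, 16 were called lower under each of 16 alternatives: TOM5, TOM6, TOM7, TOM20, TOM40, TOM71, SAM35, SAM37, TIM8, TIM9, TIM10, TIM13, TIM50, PAM17, MGE1 and HSP10. The number called lower ran from 23 to 29 with 1 sample left out and was 26 in DESeq2, 27 in edgeR, 26 by library size alone and 21 with the trend on coding length removed. The number called higher was 1 in DESeq2 and with the replicate block and 0 to 2 with 1 sample left out. The median of -0.53 became -0.34 with the length trend removed and ran from -0.56 to -0.44 with 1 sample left out.

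With the length trend removed, TOM22 (0.0375), ERV1 (0.0342), TIM17 (0.2565), TIM21 (0.0589), PAM16 (0.035), TIM44 (-0.0047) and HSP60 (-0.1165) changed sign, as did TIM44 with the GC trend removed (-0.0187). TIM44 ran from -0.0165 to 0.0982 with 1 sample left out. The 5 falls among matrix chaperones and proteases became 8 with the length trend removed and the 2 rises became 4 with the GC trend removed. The 5 rises of the Mia40 route became 3 with the GC trend removed and ran from 2 to 5 with 1 sample left out. The 9 falls of the TIM22 route ran from 4 to 10. The causes were not tested.

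Same-numbered samples did not deviate together (correlation -0.18). With the replicate block TOM70, TIM17 and TIM54 were no longer called, which left 26 lower and 1 higher. With the numbers crossed, an alternative chosen after seeing the data, 28 were lower and 2 higher.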
